A study of Mus musculus with 14 samples.

Results

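The stress keratins described here are Krt6a, Krt6b, Krt16 and Krt17, taken by gene symbol from a table of polyadenylated RNA counts of mouse neck skin. They are 4 of the 35327 named genes in the table, and all 4 were among the 20939 genes with enough counts to be tested. Keratins are the intermediate filament proteins of epithelial cells, and a filament needs a type II keratin paired with a type I keratin. Krt6a and Krt6b encode type II keratins and Krt16 and Krt17 type I keratins. In intact skin they are found mainly in hair follicles, nails and the palms and soles. Injured, inflamed or hyperproliferating epidermis between the follicles switches them on, while Krt5 and Krt14 mark its basal layer and Krt1 and Krt10 its differentiating layers. They are therefore used as markers of a stressed epidermis in wound healing, psoriasis and dermatitis.

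The 14 libraries came from C57BL/6J mice labelled female, with 1 mouse per sample according to the design text, and fall into 5 groups. The MAR1 group (n = 3) and the Isotype group (n = 3) were wild-type mice of 6 weeks that received 20 µg of an antibody intraperitoneally every other day. MAR1 recognises FcεRI alpha, an IgE receptor subunit, and is used to deplete basophils. MC903 is calcipotriol, a vitamin D analogue whose repeated use on mouse skin gives a dermatitis. After 3 injections both groups had MC903 put on shaved neck skin, 1 nmol in 100 µL a day for 6 days. The cKO group (n = 3) were Pdgfra-Cre Il4ra fl/fl mice and the fl/fl group (n = 3) Il4ra fl/fl mice, both of 6 to 7 weeks, with the same MC903 course and no injections. Pdgfra-Cre acts in cells with Pdgfra, such as dermal fibroblasts, so the IL-4 and IL-13 receptor chain gene Il4ra is not targeted in keratinocytes by design. The Untreated group (n = 2) were wild-type mice of 6 weeks. Whether vehicle was put on their skin is not stated, and the names of their libraries differ by a suffix alone. Whether they came from different mice is thus unclear, and n = 2 may be 1 mouse.

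Library totals were 5781760 to 10625900 counts in MAR1, 34330800 to 35595300 in Isotype, 16501900 to 30830700 in cKO, 45126300 to 48004700 in fl/fl, and 37521400 and 55299700 in untreated skin (to 6 digits). Olfactory and vomeronasal receptor genes, best known from sensory epithelia, took 3.88 to 9.38% of the counts in MAR1 libraries and at most 2.58% in any other library. Il4ra averaged 51.0 ± 31.7 CPM (counts-per-million units, TMM-scaled) in cKO and 179 ± 34.6 CPM in fl/fl skin (SD, n = 3 each), a log2 fold change of -1.81 ± 0.57 (SE; adjusted p = 0.043). All 8 keratinocyte markers listed were detected in every group. Salivary gland transcripts reached 20647 CPM in fl/fl skin (Bpifa2 at 733 CPM in fl/fl replicate 1 and 10949 CPM in replicate 2). Y-linked transcripts stood at 123 CPM in cKO replicate 1, and hair shaft keratins summed to 83.8 CPM in Isotype replicate 1 and 153 CPM in cKO replicate 3. In whole skin, fewer cells of a type and less RNA per cell cannot be told apart.

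The transcript annotation used (GENCODE M21) is on an older genome build than the table. It serves here for transcript lengths and sequence comparisons only. Gene order was taken from the protein-coding genes of a RefSeq list. In it, the type II members lie side by side, with Krt6a between Krt6b and Krt5, and the type I members lie side by side between Krt14 and Krt42, with Krt16 next to Krt14. The transcripts of Krt6a (2278 bases) and Krt6b (2235 bases) are 90.5% identical in an alignment. They share 1109 words of 31 bases, 49.3% of those in Krt6a and 50.3% of those in Krt6b. Counting all other genes, 66.6% of the words of Krt6a and 57.0% of those of Krt6b occur elsewhere, so how reads were divided is an estimate of the counting program and both levels are uncertain. Krt16 (1565 bases) and Krt17 (1551 bases) are 65.0% identical. Of the words in Krt17, 15.8% occur in another gene, most of them in Krt14. Of those in Krt16, 51.9% do, most of them in Gm11597, so the level of Krt16 and its ratio to Krt17 are uncertain in the same way.

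**Figure D1:**
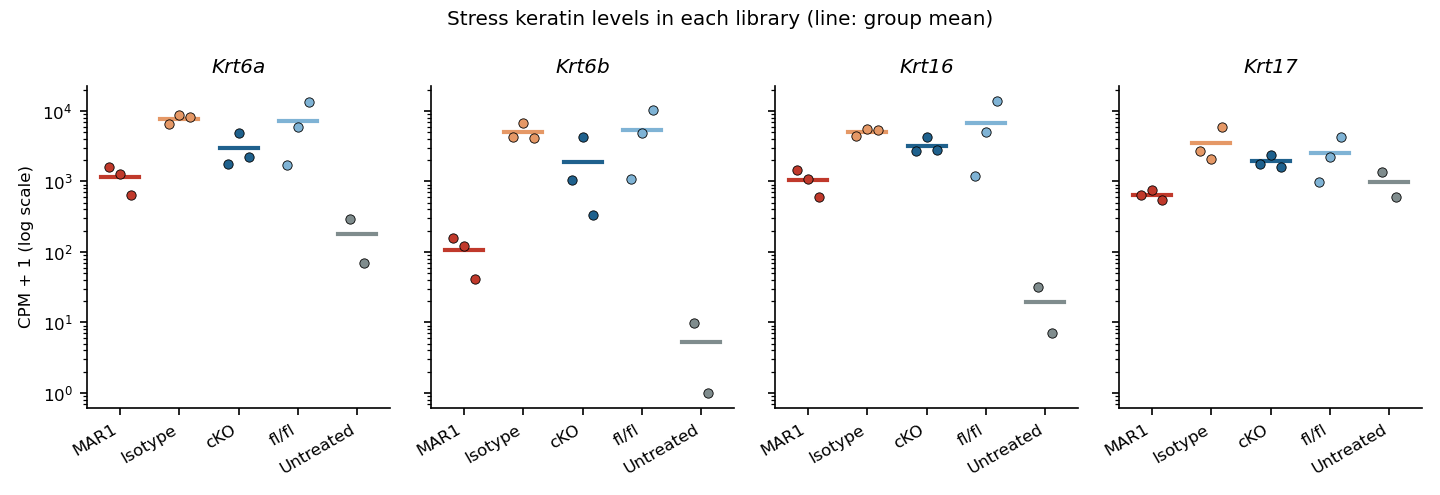
Levels of the 4 stress keratins in each library, as CPM with 1 added on a log axis. Each point is a library and each line a group mean. In untreated skin Krt6b and Krt16 lie at or below 30.99 CPM, while Krt17 lies at 599.9 and 1379 CPM.

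The first question of the design was what MC903 did to the skin. Krt6a, Krt6b and Krt16 were higher in all 4 MC903 groups than in untreated skin, and Krt17 passed the test in no MC903 group. The 4 comparisons share the same untreated libraries and are not independent of each other. MC903 is not the only difference in them: antibody injections differ too for MAR1 and Isotype, and genotype for cKO and fl/fl. In Isotype skin, 3 of the 4 members rose, beside 1.35% of all genes tested. In fl/fl skin 3 of 4 rose, beside 0.769% of all genes. In MAR1 skin 3 of 4 rose, beside 23.4% of all genes, and in cKO skin 3 of 4, beside 3.86%.

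Summed markers of other cells differed between MC903 and untreated skin as well. The 13 hair follicle markers summed to 272 to 327 CPM in MAR1, 2052 to 2437 CPM in Isotype, 522 to 1149 CPM in cKO and 1163 to 3087 CPM in fl/fl skin, against 102 to 158 CPM in untreated skin. They did not move together: 1 rose and 1 fell in Isotype, in cKO and in fl/fl, and 2 rose and 2 fell in MAR1. Their median log2 fold change was 0.46 in MAR1, 1.61 in Isotype, 2.01 in cKO and 0.14 in fl/fl. The hair follicle score, their mean log2 CPM, was 0.16 in cKO replicate 1 and 0.36 in fl/fl replicate 1. Both were below the untreated libraries (0.60 and 0.46), and every other MC903 library was above them. With that score as covariate, 2 of the 4 stress keratins were called in MAR1, 2 in Isotype, 1 in cKO and 2 in fl/fl. Of all 20939 genes tested, 4749 rose in MAR1, 101 in Isotype, 242 in cKO and 124 in fl/fl in that fit. The 10 dermal fibroblast markers summed to 1549 to 2047 CPM in MAR1, 3732 to 4469 CPM in Isotype, 1913 to 5689 CPM in cKO and 2293 to 7899 CPM in fl/fl skin, against 12812 to 19897 CPM in untreated skin. The 7 adipocyte markers summed to at most 4995 CPM in any MC903 library and to 6499 and 9329 CPM in untreated skin. The part of fibroblast and fat tissue in the result was not tested.

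Krt6a, the more abundant type II member, stood at 1583, 1251 and 639.8 CPM in MAR1 skin and at 6449, 8611 and 8152 CPM in Isotype skin. It stood at 1754, 4859.6 and 2187 CPM in cKO skin and 1702, 5998 and 13565 CPM in fl/fl skin, against 290.2 and 69.0 CPM in untreated skin. Every MC903 library was above both untreated libraries. The order of the means was Isotype (7737 ± 1139), fl/fl (7088 ± 6006), cKO (2934 ± 1682), MAR1 (1158 ± 479) and Untreated (179.6 ± 156). Isotype and fl/fl overlapped in range, as did fl/fl and cKO, while cKO lay above MAR1 and MAR1 above Untreated without overlap. Against untreated skin the log2 fold change was 2.69 ± 0.85 in MAR1 (6.45-fold, adjusted p = 0.019), 5.43 ± 0.99 in Isotype (43.1-fold, adjusted p = 0.013), 4.03 ± 0.92 in cKO (16.3-fold, adjusted p = 0.025) and 5.30 ± 0.98 in fl/fl (39.5-fold, adjusted p = 0.016). Without Untreated replicate 1, the higher of that pair, the log2 fold change was 4.06 in MAR1, 6.81 in Isotype, 5.41 in cKO and 6.68 in fl/fl, so the size of the fold rests on 1 library.

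Krt6b, its near copy, had the widest range. It stood at 157, 119 and 39.7 CPM in MAR1 skin and 4286, 6737 and 4172 CPM in Isotype skin. It stood at 1034, 4285 and 328 CPM in cKO skin and 1072, 4837 and 10409.8 CPM in fl/fl skin. The untreated libraries had 8.70 CPM (491 counts) and 0 counts, which allows up to 0.0711 CPM (3 counts, counting error only). The means ran from fl/fl to Isotype, cKO, MAR1 and Untreated. Here fl/fl, Isotype and cKO overlapped each other, while MAR1 lay apart between cKO and Untreated. The log2 fold changes were 4.59 ± 1.74 in MAR1 (adjusted p = 0.044), 10.18 ± 2.25 in Isotype (adjusted p = 0.031), 8.75 ± 2.13 in cKO (adjusted p = 0.034) and 10.28 ± 2.26 in fl/fl (adjusted p = 0.041). These sizes rest on the 1 untreated library with counts. Without it the untreated group is at 0 and the fit gives no usable size. All 4 calls were lost without the filter on low counts, with adjusted p of 0.099 in MAR1, 0.081 in Isotype, 0.069 in cKO and 0.095 in fl/fl. Taken with Krt6a as a sum, which takes out the division of reads between this pair but not with other genes, type II stress keratin stood at 679 to 1740.0 CPM in MAR1, 10734.5 to 15348 CPM in Isotype, 2515 to 9145 CPM in cKO, 2773 to 23975 CPM in fl/fl, and 69.0 and 299 CPM in untreated skin.

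Krt16, a type I member that pairs with the keratin 6 proteins, stood at 1457, 1066 and 601 CPM in MAR1 skin and 4421, 5451 and 5351 CPM in Isotype skin. It stood at 2685, 4215 and 2744 CPM in cKO skin and 1189, 4955 and 13977 CPM in fl/fl skin, against 30.99 and 6.15 CPM in untreated skin. It was the member that separated MC903 from untreated skin with the smallest p in each of the 4 comparisons. The log2 fold change was 5.81 ± 1.05 in MAR1 (56.0-fold, adjusted p = 0.00083), 8.09 ± 1.17 in Isotype (273-fold, adjusted p = 0.0048), 7.43 ± 1.14 in cKO (173-fold, adjusted p = 0.0062) and 8.50 ± 1.19 in fl/fl (361-fold, adjusted p = 0.0045). Without Untreated replicate 1 it was 7.40 in MAR1, 9.69 in Isotype, 9.03 in cKO and 10.09 in fl/fl. The means followed the order fl/fl, Isotype, cKO, MAR1 and Untreated. Isotype and cKO did not overlap for this gene, but fl/fl (from 1189 CPM) overlapped both, and MAR1 (up to 1457 CPM) as well.

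Krt17, the other type I member and a known keratin of follicles and basal-like appendage cells, was already present in untreated skin. It stood at 646, 757 and 545 CPM in MAR1 skin and 2673, 2056 and 5812 CPM in Isotype skin. It stood at 1749, 2401 and 1607 CPM in cKO skin and 985, 2200.5 and 4312 CPM in fl/fl skin, against 1379 and 599.9 CPM in untreated skin. MAR1 was the lowest group on average and overlapped Untreated. The log2 fold change was -0.61 ± 0.58 in MAR1 (adjusted p = 0.39), 1.83 ± 0.63 in Isotype (adjusted p = 0.14), 0.96 ± 0.61 in cKO (adjusted p = 0.30) and 1.34 ± 0.62 in fl/fl (adjusted p = 0.27). DESeq2 called Krt17 in Isotype skin (1.84, adjusted p = 0.024), and so did the fit without the libraries with salivary gland or Y-linked transcripts (2.14, adjusted p = 0.044).

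**Figure D2:**
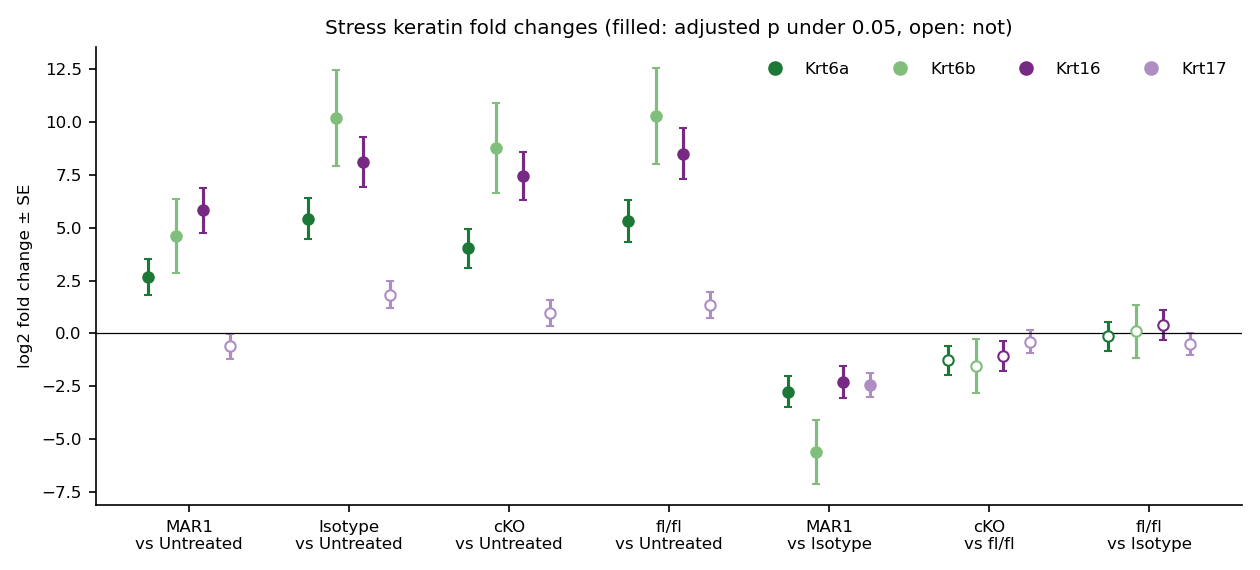
Log2 fold change ± SE of each stress keratin in 7 comparisons, filled where the adjusted p was under 0.05. Against untreated skin Krt6a, Krt6b and Krt16 are filled in all 4 MC903 groups and Krt17 in none. All 4 members are filled and below 0 for MAR1 against Isotype, and none is filled for cKO against fl/fl or for fl/fl against Isotype.

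Other settings gave other counts against untreated skin. Without Untreated replicate 2, 1 of 4 members was called in MAR1 and 1 of 4 in fl/fl. Krt6a then had an adjusted p of 0.093 in MAR1, 0.063 in cKO and 0.15 in fl/fl, and without Untreated replicate 1 it had 0.075 in cKO. With the receptor gene share as covariate 0 of 4 were called in MAR1, beside 3 of 20939 genes that rose. RLE scaling in place of TMM split the calls of all genes in MAR1 into 6284 higher and 3621 lower, against 4910 and 5433 with TMM. With the untreated libraries summed to 1, fewer members were called in each MC903 group. These settings leave 1 untreated library, which is then assumed to vary like the other groups. The sizes with the libraries summed were close to those above, with Krt16 in cKO at 7.44. A fit of the compared groups alone called 2 of 4 in MAR1, 3 of 4 in Isotype, 1 of 4 in cKO and 0 of 4 in fl/fl. In fl/fl edgeR then called 0 genes at all (1892 at an unadjusted p under 0.05, and 2124 by DESeq2 on all groups). In those fits 5479 of 18253 genes rose in MAR1, 1498 of 17528 in Isotype and 75 of 17976 in cKO. Leaving out Isotype replicate 1 and cKO replicate 3, the libraries with hair shaft keratins, left 2 of 4 in Isotype and 1 of 4 in cKO. Of all 20550 genes tested there, 95 rose in Isotype and 134 in cKO. The libraries with salivary gland or Y-linked transcripts were fl/fl replicates 1 and 2 and cKO replicate 1. Without them, 3 of 4 were called in cKO, beside 1650 of 21254 genes that rose. In fl/fl only replicate 3 was then left, the library with the most Krt6a, Krt6b and Krt16 of all. Its log2 fold changes were 6.25 for Krt6a, 11.26 for Krt6b, 9.57 for Krt16 and 2.11 for Krt17. With the replicate number as a replicate block, 2 of 4 were called in MAR1, 2 of 4 in Isotype, 1 of 4 in cKO and 1 of 4 in fl/fl. Of all 20939 genes, 3913 rose in MAR1, 130 in Isotype, 201 in cKO and 101 in fl/fl with that block.

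MAR1 against Isotype asked what the basophil-depleting antibody changed in MC903-treated skin. All 4 stress keratins were lower in MAR1 skin, and the groups did not overlap for any of them. Of the 4 members, 4 fell, beside 26.5% of all genes tested. Krt6a fell by 2.74 ± 0.73 on the log2 scale (6.68-fold, adjusted p = 0.0077) and Krt6b fell by 5.59 ± 1.53 (48.1-fold, adjusted p = 0.0099). Krt16 fell by 2.28 ± 0.74 (4.87-fold, adjusted p = 0.022) and Krt17 by 2.44 ± 0.56 (5.41-fold, adjusted p = 0.0032). Together the members took 0.212 to 0.423% of all counts in MAR1 libraries and 1.79 to 2.34% in Isotype libraries.

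The MAR1 libraries also differed from the Isotype libraries in make-up and depth. Summed keratinocyte markers stood at 3582 to 7428 CPM in MAR1 and 21563 to 39615 CPM in Isotype libraries, and hair follicle markers at 272 to 327 CPM in MAR1 and 2052 to 2437 CPM in Isotype. The receptor gene share was 3.88 to 9.38% in MAR1 and 0.269 to 0.439% in Isotype libraries. Mitochondrial transcripts took 0.129 to 0.344% of counts in MAR1 and 2.12 to 2.33% in Isotype. With that receptor share (log2) entered as covariate, 0 of 4 members were called, and 0 genes at all by edgeR (1537 at an unadjusted p under 0.05), against 10270 in the plain fit, so the share and the antibody cannot be told apart here. RLE scaling in place of TMM moved the median of all genes by 0.57 upwards, and the split of all calls became 6346 higher and 3645 lower in MAR1, against 4723 and 5547 with TMM. Under RLE, Krt6a, Krt6b and Krt17 stayed below Isotype with adjusted p of 0.020, 0.014 and 0.013, while Krt16 had -1.74 (adjusted p = 0.059). Krt16 also missed the threshold without Isotype replicate 2 (adjusted p = 0.052), MAR1 replicate 2 (adjusted p = 0.068) or MAR1 replicate 3 (adjusted p = 0.084). Without the libraries with hair shaft keratins 3 of 4 members were called, beside 4608 of 20550 genes that fell. Without those with salivary gland or Y-linked transcripts 4 of 4 were called, beside 5834 of 21254.

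The cKO against fl/fl comparison asked what loss of Il4ra in Pdgfra-expressing cells changed. The stress keratins were lower in cKO skin on average, but the fl/fl libraries spread so widely that the ranges of cKO and fl/fl overlapped for each member. Of the 4 members, edgeR called 0, beside 5.97% of all genes that fell, and DESeq2 called 0. An unadjusted p under 0.05 was reached by 0 of 4, beside 7356 of all 20939 genes. The log2 fold change was -1.27 ± 0.69 for Krt6a (adjusted p = 0.20), -1.53 ± 1.28 for Krt6b (adjusted p = 0.42), -1.06 ± 0.72 for Krt16 (adjusted p = 0.31) and -0.38 ± 0.53 for Krt17 (adjusted p = 0.64). fl/fl replicate 3 held the highest level of Krt6a, Krt6b and Krt16 of all libraries. Without it the estimates were 0.0071 for Krt6a, -0.26 for Krt6b, 0.47 for Krt16 and 0.66 for Krt17. The receptor gene share was 0.467 to 2.58% in cKO and 0.0479 to 0.0769% in fl/fl libraries. With it as covariate the estimates were 2.09 for Krt6a, 7.14 for Krt6b, 2.26 for Krt16 and 1.17 for Krt17, with 0 of 4 called. In that fit 14 of all 20939 genes were called, against 3906 in the plain fit, so the share and the genotype cannot be told apart here. Calls of other genes in cKO against fl/fl given below come from the plain fit. Skeletal muscle markers summed to 25.2 to 3780 CPM in cKO and 15768 to 68145 CPM in fl/fl skin (6 of 12 fell). Red blood cell markers summed to 47.7 to 221 CPM in cKO and 2411 to 16198 CPM in fl/fl skin (5 of 5 fell). The part of muscle and blood in the result was not tested.

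fl/fl against Isotype compared both control arms, which differ in genotype, age and injections. No member was called by edgeR (0 of 4, beside 5.22% of all genes called) or by DESeq2 (0 of 4). An unadjusted p under 0.05 was reached by 0 of 4, beside 5079 of all 20939 genes. The log2 fold changes were -0.13 ± 0.68 for Krt6a, 0.10 ± 1.25 for Krt6b, 0.40 ± 0.71 for Krt16 and -0.49 ± 0.53 for Krt17. The fl/fl libraries spread over 1702 to 13565 CPM for Krt6a and the Isotype libraries over 6449 to 8611 CPM.

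Whether the cKO effect differed from the MAR1 effect was tested as an interaction, the cKO log2 fold change minus the MAR1 one. It was 1.47 ± 0.97 for Krt6a (adjusted p = 0.33), 4.06 ± 1.84 for Krt6b (adjusted p = 0.16), 1.22 ± 1.01 for Krt16 (adjusted p = 0.44) and 2.05 ± 0.75 for Krt17 (adjusted p = 0.095). edgeR called 0 of 4, beside 7.96% of all genes, and DESeq2 called 0. At an unadjusted p under 0.05 were 2 of 4 (Krt6b and Krt17), beside 6244 of all 20939 genes. Without fl/fl replicate 3, 3 of 4 were called, beside 4863 of all 20902 genes tested (1667 of 20939 with it). The estimates were then 2.73 for Krt6a, 2.73 for Krt16 and 3.12 for Krt17, while Krt6b had 5.30 (adjusted p = 0.096).

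Ratios between keratins within a library do not depend on library scaling. The question was whether the members kept their proportions to each other and to the basal and differentiation keratins. In MC903 skin, Krt16 and Krt17 were of like count, whereas untreated skin held mostly Krt17. The count of Krt16 per count of Krt17 was 2.26, 1.41 and 1.10 in MAR1, 1.65, 2.65 and 0.921 in Isotype, 1.54, 1.76 and 1.71 in cKO, and 1.21, 2.25 and 3.24 in fl/fl libraries, against 0.0225 and 0.0102 in untreated libraries. The 12 MC903 libraries were all above both untreated ones, with a mean log2 difference of 6.80 (112-fold). By an exact two-sided permutation test p was 0.011, the smallest that 12 against 2 libraries allow, and 0.038 adjusted over the 21 ratio tests. The test pools MC903 groups that differ in genotype and antibody. It also counts the untreated libraries as separate mice, which is unclear, and with a single untreated mouse no ratio could pass.

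Type II stress keratin also moved against its neighbours. The ratio of Krt6a plus Krt6b to Krt5 was 3.77 to 5.91 in MAR1, 4.58 to 5.76 in Isotype, 1.07 to 2.90 in cKO and 4.10 to 10.4 in fl/fl libraries, against 0.0541 and 0.0799 in untreated libraries. The mean log2 difference between the 12 MC903 libraries and the untreated ones was 5.95 (61.8-fold). Krt6b to Krt6a differed by 6.81, type II to type I stress keratin by 2.74, Krt6a plus Krt6b to Krt1 by 3.22, and Krt16 plus Krt17 to Krt10 by 3.89. Each of these ratios was higher in all 12 MC903 libraries than in both untreated ones, with the same exact permutation p of 0.011 (adjusted 0.038) and the same limits. The exception was Krt16 plus Krt17 to Krt14, at 0.396 to 0.758 in the 12 MC903 libraries and 0.711 and 0.717 in the untreated ones. Its log2 difference was -0.32 (exact permutation p = 0.19, adjusted 0.30).

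**Figure D3:**
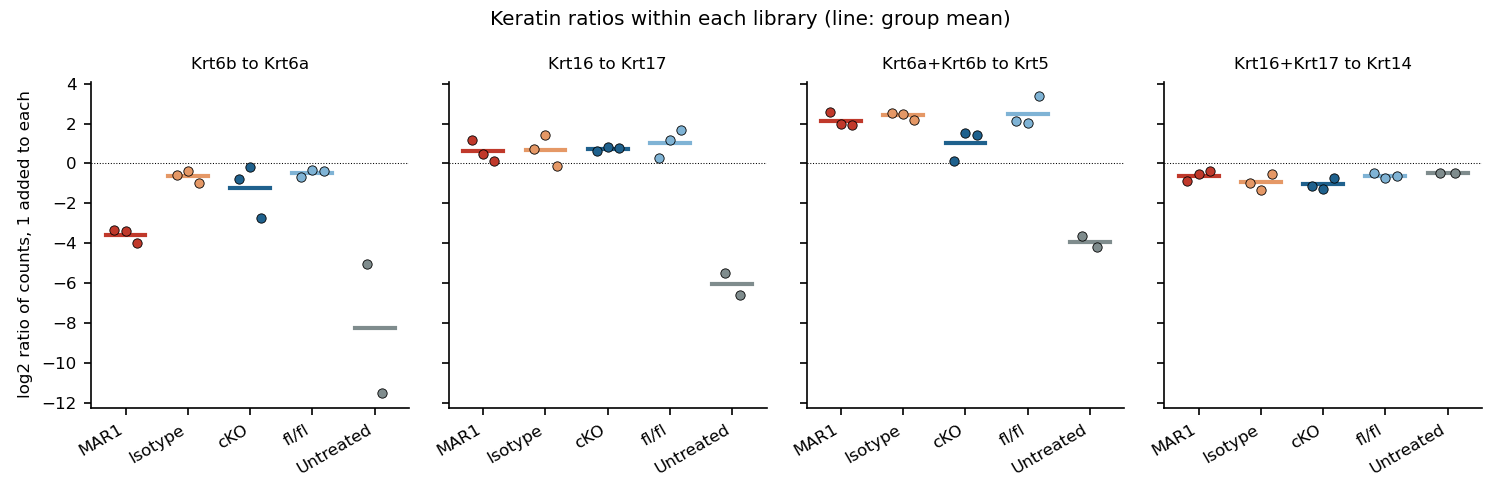
Within-library log2 ratios of counts, with 1 added to each sum; each point is a library and each line a group mean. The first 3 ratios put both untreated libraries below every MC903 library, whereas for Krt16 plus Krt17 to Krt14 the untreated libraries lie within the MC903 range.

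Between MAR1 and Isotype skin, the ratio furthest apart was the one between the near copies, whose shared reads make it uncertain. Krt6b per Krt6a was 0.0990, 0.0953 and 0.0619 in MAR1 libraries, against 0.665, 0.782 and 0.512 in Isotype libraries. The groups did not overlap, with a log2 difference of -2.94 (exact permutation p = 0.1, the smallest possible with 3 against 3, adjusted 0.19). Type II to type I stress keratin, 0.593 to 0.827 in MAR1 and 1.10 to 2.04 in Isotype libraries, did not overlap either (difference -1.07, same p). The other 5 ratios overlapped between MAR1 and Isotype. Krt6a plus Krt6b to Krt5 differed by -0.25 (exact permutation p = 0.4) and Krt16 plus Krt17 to Krt14 by 0.35 (p = 0.2). Krt5 fell by 3.15 ± 0.62 and Krt14 by 2.62 ± 0.68 on the log2 scale in MAR1 skin (adjusted p = 0.0013 and 0.0069).

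In cKO against fl/fl skin, 3 ratios to the normal keratins did not overlap. Krt6a plus Krt6b to Krt5 was 1.07, 2.90 and 2.67 in cKO libraries and 4.33, 4.10 and 10.4 in fl/fl libraries, a log2 difference of -1.49. Krt6a plus Krt6b to Krt1 was 0.909 to 1.41 in cKO and 2.13 to 4.80 in fl/fl libraries (-1.60). Krt16 plus Krt17 to Krt14 was 0.413 to 0.594 in cKO and 0.608 to 0.724 in fl/fl libraries (-0.44). All 3 had an exact permutation p of 0.1, the smallest possible, and 0.19 after adjustment. Krt6b per Krt6a was 0.590, 0.882 and 0.150 in cKO and 0.630, 0.806 and 0.767 in fl/fl libraries, with cKO replicate 3 the low one. That library had hair shaft keratins. It also had the highest receptor gene share (2.58%) and the lowest total (16501900 counts) outside MAR1. Isotype replicate 1, the other library with hair shaft keratins, had a ratio of 0.665. The cause of the low ratio was not tested.

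Levels of different keratins were set side by side per kilobase of transcript. In untreated skin Krt17 stood at 638 ± 355 CPM per kb, above Krt6a at 78.8 ± 68.7, Krt16 at 11.9 ± 11.2 and Krt6b at 1.95 ± 2.75 CPM per kb (SD, n = 2). In Isotype skin the order was Krt6a (3396 ± 500), Krt16 (3242 ± 363), Krt6b (2266 ± 648) and Krt17 (2265 ± 1299 CPM per kb), and in fl/fl skin Krt16 (4286 ± 4199) came before Krt6a (3112 ± 2637). In MAR1 skin Krt16 (666 ± 274) and Krt6a (508 ± 210 CPM per kb) were the highest and Krt6b (47.1 ± 26.7) the lowest.

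As a share of the 8 type II epidermal keratins compared, Krt6a and Krt6b together made up 56.0 ± 6.3% in MAR1, 64.3 ± 9.1% in Isotype, 41.1 ± 7.2% in cKO and 66.0 ± 8.4% in fl/fl skin, against 2.03 ± 0.53% in untreated skin. There Krt77, a keratin of normal epidermis and sweat gland ducts, held 54.7% and Krt5 held 31.4%. Krt6b alone held 4.54% of the pool in MAR1 and 25.5% in Isotype skin. As a share of the 5 type I keratins, Krt16 and Krt17 made up 34.1 ± 2.4% in MAR1, 32.7 ± 6.2% in Isotype, 27.4 ± 1.7% in cKO and 37.6 ± 3.5% in fl/fl skin, against 11.1 ± 1.5% in untreated skin. Untreated skin had Krt10 at 44.7% and Krt15, a basal and follicle bulge keratin, at 29.9%. The members' type I share overlapped between MAR1 (31.5 to 36.1%) and Isotype (25.9 to 37.9%), while their summed level did not.

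**Figure D4:**
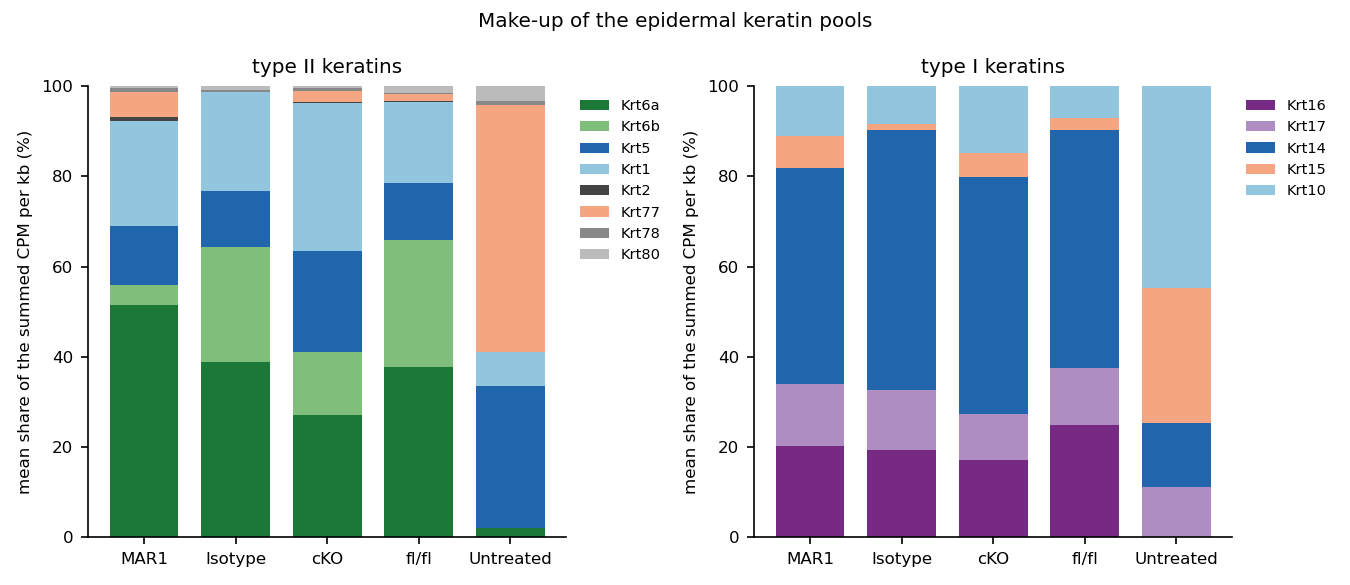
Mean share of each keratin in the summed CPM per kb of the type II and type I epidermal keratins, by group. Krt6a and Krt6b together hold 41.1 to 66.0% of the type II pool in MC903 groups and 2.03% in untreated skin, where Krt77 holds 54.7%.

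The genes whose levels followed the members most closely were found by correlation with the mean of the members' scaled log2 CPM, among 10918 genes of at least 10 CPM on average. Over all 14 libraries the closest were Fhl2 (Pearson's r = 0.975, Spearman's rho = 0.969), the cornified envelope precursor Sprr1b (0.972 and 0.947), Cdhr1, Tnni1 and the epidermal protease Klk13, then Krt14 (0.959 and 0.974), Etv4, Ang2, Sprr2d and Sprr2h. These libraries share the contrast between MC903 and untreated skin. Over the 12 MC903 libraries with each group's mean taken off, the closest were Tmem43 (r = 0.994, rho = 0.986), Lypd3 (0.989 and 0.972), Ywhaz, Klc3, the epithelial transcription factor gene Ehf, Krt14 (0.976 and 0.923), Sprr1b, F11r, Cltb and Tyro3. Krt14 and Sprr1b were in both groups of 10. By rho, 5 of the 10 genes over all 14 libraries and 4 of the 10 over the MC903 libraries were again among the closest 10. Over the MC903 libraries Krt14 ranked 86 and Sprr1b 32 by rho. Values are descriptions across libraries that share depth and tissue make-up, with no test.

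Genes known to be expressed beside stress keratins in hyperproliferating epidermis were read from a list of 19, of which 18 were tested. In Isotype against untreated skin 9 of the 18 rose, with a median log2 fold change of 6.06 (5.83 with genes at 0 in untreated skin at their lower bound), beside 0.11 for all genes. In this list and those below, counts for Isotype against untreated skin stand beside 1.35% of all genes that rose and 1.72% that fell. In fl/fl skin 11 of 18 rose, beside 0.769% of all genes. In MAR1 skin 12 of 18 rose, beside 23.4%, and in cKO skin 12 of 18, beside 3.86%. The cystatin gene Stfa3 stood at 776 ± 128 CPM in Isotype and 2.62 ± 2.03 CPM in untreated skin (8.20 ± 0.72, adjusted p = 0.00017). The gap junction gene Gjb6 stood at 256 ± 60.5 CPM in Isotype and 2.25 ± 0.33 CPM in untreated skin (6.82 ± 0.97, adjusted p = 0.0047). The defensin gene Defb14 averaged 19.4 CPM in Isotype and 0.0119 CPM in untreated skin (adjusted p = 0.0030), and the envelope gene Lce3d averaged 103 CPM in Isotype skin with no count in untreated skin (adjusted p = 0.0039).

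The counts for MAR1 against Isotype in the gene lists stand beside 26.5% of all genes that fell and 22.6% that rose (17.4% and 30.3% under RLE scaling). Of the 18 companions 7 fell (median -1.89, beside 0 for all genes; 5 fell under RLE scaling). The envelope genes Sprr1a, Sprr2h and Sprr1b fell by 3.79 ± 0.65, 2.99 ± 0.80 and 3.59 ± 1.02 on the log2 scale (adjusted p = 0.00063, 0.0086 and 0.012), and the fatty acid binding protein gene Fabp5 by 2.58 ± 0.61 (adjusted p = 0.0040). Stfa3, named here after its values were seen, stood at 963 ± 462 CPM in MAR1 and 776 ± 128 CPM in Isotype skin (0.31 ± 0.44, adjusted p = 0.56). Of the 18, 1 rose and 1 fell in cKO against fl/fl skin, where 12.7% of all genes rose and 5.97% fell (median -0.73, beside 0.03): involucrin (Ivl) rose by 1.79 ± 0.50 (adjusted p = 0.024) and Sprr2h fell by 2.67 ± 0.78 (adjusted p = 0.033).

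**Figure D5:**
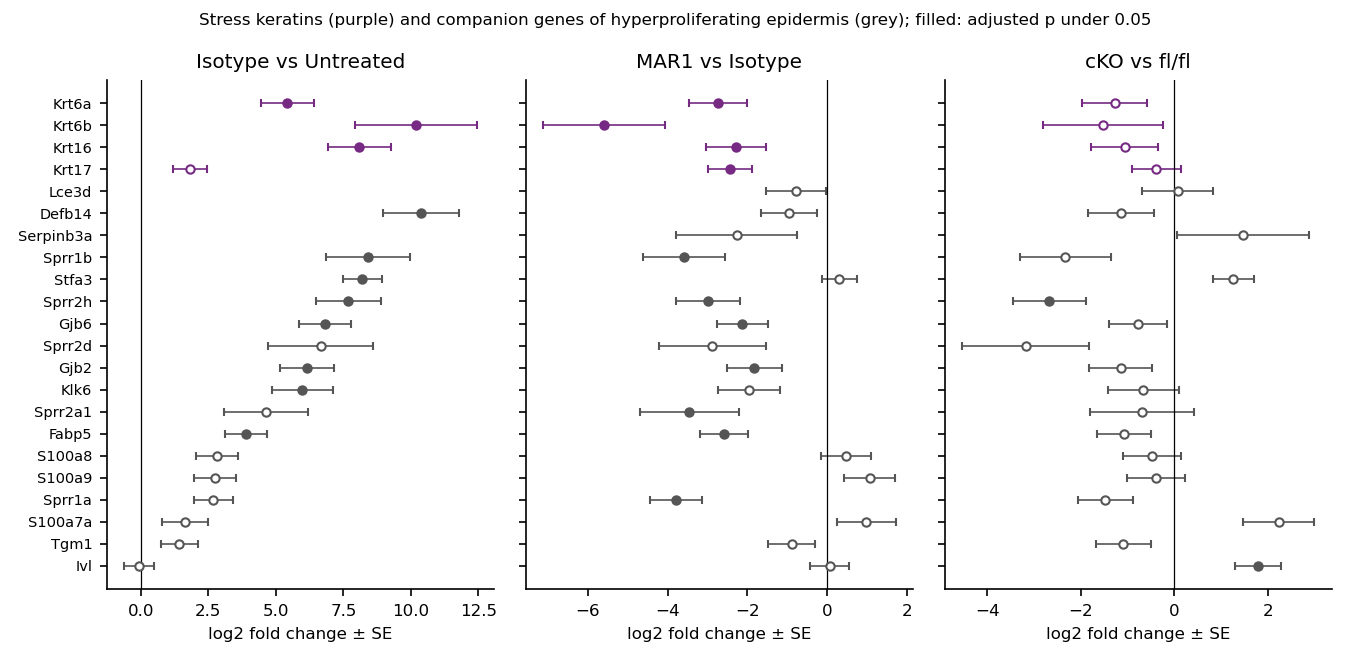
Log2 fold change ± SE of the stress keratins (purple) and of 18 companion genes (grey) in 3 comparisons, filled where the adjusted p was under 0.05. Genes with no count in any library of a compared group (Lce3d and Serpinb3a in untreated skin) are not drawn in that panel. In MAR1 against Isotype 7 companion genes are filled and below 0; in cKO against fl/fl only Ivl and Sprr2h are filled.

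Among 9 normal epidermal keratins, 1 rose and 2 fell in Isotype against untreated skin. The basal keratin Krt14 stood at 16375 ± 2514 CPM in Isotype and 1410 ± 788 CPM in untreated skin (3.54 ± 0.84, adjusted p = 0.037), while Krt15 fell by 3.07 ± 0.48 (adjusted p = 0.0062) and Krt77 by 8.07 ± 1.36 (adjusted p = 0.011). Krt5, the partner of Krt14, was at 2418 ± 481 CPM in Isotype and 2509 ± 1746 CPM in untreated skin. In MAR1 against Isotype 6 of 9 fell, Krt5, Krt80, Krt14 and Krt1 with the smallest p, and 2 rose; 4 fell under RLE scaling. Krt15 rose by 1.39 ± 0.43 (adjusted p = 0.039) and Krt80 fell by 2.64 ± 0.76 (adjusted p = 0.029) in cKO against fl/fl. Of 10 hair sheath keratins 3 fell in MAR1 against Isotype, Krt79, Krt75 and Krt71, near the 26.5% of all genes. Simple epithelial Krt19 and Krt18 fell in Isotype against untreated skin, 2 of 8 tested on their list.

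Of 18 listed cytokines that act on keratinocytes or are made by them, 16 were tested. In Isotype against untreated skin 6 rose. Tslp, the keratinocyte cytokine thymic stromal lymphopoietin, stood at 382 ± 166 CPM in Isotype and 2.58 ± 0.72 CPM in untreated skin (7.21 ± 1.08, adjusted p = 0.0054). Il36a rose by 6.09 ± 1.14 (adjusted p = 0.015) and Il6 by 2.51 ± 0.60 (adjusted p = 0.037), and Il24 averaged 7.18 CPM in Isotype skin with no count in untreated skin. Of the 16, 3 fell and 4 rose in MAR1 against Isotype (3 and 5 under RLE scaling), beside 26.5% and 22.6% of all genes. Il36b fell by 4.06 ± 0.94 (adjusted p = 0.0041), Il1a fell by 4.57 ± 1.11 (adjusted p = 0.0050) and Tslp fell by 2.78 ± 0.73 (adjusted p = 0.0074), while Il6 rose by 2.02 ± 0.50 (adjusted p = 0.0050). Between cKO and fl/fl skin, Tslp fell to 131 ± 68.3 CPM in cKO, against 771 ± 461 CPM in fl/fl skin (-2.56 ± 0.72, adjusted p = 0.026), and Il20, with no count in fl/fl skin, averaged 1.72 CPM in cKO skin (adjusted p = 0.018).

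Of the 17 genes for receptors of those cytokines, 10 fell and 1 rose in MAR1 against Isotype (8 and 3 under RLE scaling). The TNF receptor gene Tnfrsf1a fell by 5.22 ± 0.74 and Il1r1 by 2.69 ± 0.41, while Il6ra rose by 1.91 ± 0.38 (adjusted p = 0.00030, 0.00036 and 0.0014). The cKO skin had 3 below fl/fl skin, Il17ra (-1.39 ± 0.34), Ifngr1 (-1.30 ± 0.38) and Il4ra itself. In the EGF receptor system, whose ligands act on keratinocytes, 5 of 11 genes fell in MAR1 against Isotype (4 under RLE scaling). The ligand gene Epgn averaged 2.43 CPM in MAR1 and 136 CPM in Isotype skin (-5.77 ± 0.92, adjusted p = 0.00052), and was also the 1 gene of the list that rose in Isotype against untreated skin (4.39 ± 1.01, adjusted p = 0.036).

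Among 23 genes for transcription factors that act on stress keratin genes, 1 fell in Isotype against untreated skin, Gata3 (-2.28 ± 0.45, adjusted p = 0.018). In MAR1 against Isotype 9 of the 23 fell and 2 rose, beside 26.5% and 22.6% of all genes (6 and 3 under RLE scaling, beside 17.4% and 30.3%). The oxidative stress regulator gene Nfe2l2, known to act on these keratin genes, fell by 2.16 ± 0.33 (adjusted p = 0.00035) and Myc by 2.57 ± 0.39 (adjusted p = 0.00037), whereas Rara, a retinoic acid receptor gene, rose by 2.84 ± 0.40 (adjusted p = 0.00028) and Gata3 by 2.55 ± 0.43 (adjusted p = 0.00055). In cKO against fl/fl Rela, Myc and Fosb fell and Gata3 rose (1.35 ± 0.41, adjusted p = 0.036). Of 12 keratin partners and cytolinkers, 5 fell in MAR1 against Isotype, the cytolinker gene Plec by 3.82 ± 0.53 (adjusted p = 0.00028), and 1 rose, Tchp (3 and 1 under RLE scaling).

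Cell division genes are a measure of proliferation apart from the keratins. Of 20 tested, 7 rose in Isotype against untreated skin (median 1.50, beside 0.11 for all genes), among them Cdk1 (2.06 ± 0.37, adjusted p = 0.013) and Mki67 (1.93 ± 0.36, adjusted p = 0.015). Of the 20, 7 fell and 2 rose in MAR1 against Isotype (4 and 2 under RLE scaling), beside 26.5% and 22.6% of all genes (17.4% and 30.3% under RLE scaling). Mki67, the usual proliferation marker and named here after its values were seen, stood at 61.3 ± 8.8 CPM in MAR1 and 66.0 ± 17.4 CPM in Isotype skin (-0.11 ± 0.30, adjusted p = 0.78). The licensing factor gene Mcm5 fell by 1.83 ± 0.36 (adjusted p = 0.0014), while Birc5 and Tyms rose by 2.30 ± 0.30 and 3.64 ± 0.54 (adjusted p = 0.00027 and 0.00032). Tyms also rose in cKO against fl/fl (2.90 ± 0.52, adjusted p = 0.0036).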

How the data were processed

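Polyadenylated RNA from whole frozen, cryosectioned neck skin was sequenced in 14 libraries of 5 groups, per the labels' protocols. The deposited table holds expected counts per gene (estimated, with decimals), which the authors left unnormalized. Salmon 1.2.1, DESeq2 1.44.0 and the build GRCm39 appear in the submitters' processing notes, without saying which step each served. Of its 35328 entries, 1 carries no gene name. It held 0.0137 to 0.913% of a library's counts and was left out.

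Counts were rounded and fitted as 5 group means on all 14 libraries by the two-sided quasi-likelihood test of edgeR 4.0.16 under R 4.3.3 (robust, TMM-scaled, genes kept by filterByExpr). P-values were Benjamini-Hochberg adjusted over the 20939 genes tested, and genes were called under 0.05. Adjusted p in the text is from this fit unless a permutation test or another tool is named. The SE is the log2 fold change divided by the square root of F. The common dispersion was 0.361 and 9 residual degrees of freedom were left, and the p-values reflect no more than the spread among these libraries. CPM is given as mean ± SD.

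The members and lists were chosen with earlier results of these data known. Of each list described, up to 4 genes of smallest p in a comparison are named, and the 10 genes most like the members (uncharacterized genes left out). List medians are also given with a floor of 3 counts per library where a group had no count. Ratios were formed within libraries with 1 added. Replicate numbers are not stated to pair samples, and no pairing was assumed. Same-numbered libraries correlated at -0.14 to 0.077 and differently numbered ones at -0.20 to 0.20, which cannot settle whether they pair. No 2 libraries of the same group were duplicates (chi-square per degree of freedom of at least 17.3), and libraries of different groups were not compared. Alternatives were DESeq2 1.42.0, RLE scaling, a fit with no filter, a fit of the compared groups alone, a minimum of 1 CPM in 3 libraries, untreated libraries summed, a replicate block, hair follicle score or receptor gene share (1984 genes) as covariate, each library left out, and for ratios another value added. Leaving out libraries with hair shaft keratins (over 10 CPM) or with salivary gland (Bpifa2 over 100 CPM) or Y-linked transcripts (over 10 CPM) was chosen after seeing the data.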

Additional observations from a re-analysis of the deposited data

How the results depend on the processing

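Of the recomputed counts of members called, 119 stayed within 1.5 times the count in the report and 15 did not. Among the exceptions against untreated skin was 0 in MAR1 with the receptor gene share as covariate. In cKO it was 1 with the replicate block, the hair follicle score, only the groups compared, or no libraries with hair shaft keratins. In fl/fl it was 1 with the replicate block and 0 with only the groups compared. Summing the untreated libraries, which leaves 1, also lowered the count past that limit in MAR1, Isotype and cKO. With the receptor gene share as covariate, 0 were called in MAR1 against Isotype and 2 in the interaction, beside 0 and 3782 of 20939 genes tested. When libraries were left out one by one, counts were 1 to 3 in MAR1 against untreated skin, 2 to 3 in Isotype, 2 to 3 in cKO, 1 to 3 in fl/fl, 3 to 4 in MAR1 against Isotype and 0 to 3 in the interaction. The cause was not tested.

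Of the recomputed member fold changes, 449 kept direction and call, 55 lost the call, 7 gained one and 25 turned round. With the receptor gene share as covariate these were Krt6a 0.34, Krt6b 2.82 and Krt16 0.62 in MAR1 against Isotype, Krt17 1.52 in MAR1 against untreated skin, Krt6a 2.09, Krt6b 7.14, Krt16 2.26 and Krt17 1.17 in cKO against fl/fl, and Krt6b -5.62 and Krt16 -1.63 in fl/fl against Isotype. Without libraries with hair shaft keratins, Krt17 was 0.12 in cKO against fl/fl, and Krt6b -0.43 and Krt16 -0.12 in fl/fl against Isotype. Krt6b was -0.055 there with the hair follicle score. Krt6a was 0.51 there without salivary gland or Y-linked libraries, which leaves fl/fl replicate 3 alone in its group. Leaving out single libraries gave Krt17 -0.60 to 0.11 in MAR1 against untreated skin. In cKO against fl/fl it gave -1.41 to 0.0071 for Krt6a, -1.24 to 0.47 for Krt16 and -0.47 to 0.66 for Krt17. In fl/fl against Isotype it gave -1.41 to 0.0093 for Krt6a, -1.17 to 0.36 for Krt6b, -1.13 to 0.58 for Krt16 and -1.56 to 0.080 for Krt17.

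Leaving out an untreated library left 1 against 12, where the smallest exact permutation p is 0.0769, so no ratio could pass; the 6 ratios called had an adjusted p of 0.19. Their log2 differences over all single-library omissions were 3.58 to 10.03 for Krt6b to Krt6a, 6.24 to 7.37 for Krt16 to Krt17, 2.29 to 3.19 for type II to type I, 5.67 to 6.23 for Krt6a plus Krt6b to Krt5, 3.08 to 3.34 to Krt1, and 3.70 to 4.08 for Krt16 plus Krt17 to Krt10. In MAR1 against Isotype, Krt16 to Krt17 ran over -0.46 to 0.30, Krt6a plus Krt6b to Krt1 over -0.73 to 0.20 and Krt16 plus Krt17 to Krt10 over -1.34 to 0.19, and in cKO against fl/fl Krt16 to Krt17 ran over -0.70 to 0.013, each through 0. With no value added, Krt6b to Krt6a had no value against untreated skin because of a count of 0.

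The number of all genes called moved more. It was 644 in Isotype against untreated skin (50 to 3553 over the settings), 360 in fl/fl (0 to 2124), 10343 in MAR1 (3 to 11580), 1428 in cKO (70 to 4916), 10270 in MAR1 against Isotype (0 to 12222), 3906 in cKO against fl/fl (14 to 5994), 1094 in fl/fl against Isotype (0 to 3396) and 1667 in the interaction (1 to 4863). RLE scaling gave 437 higher and 467 lower in the interaction (TMM 1285 and 382), 6284 and 3621 in MAR1 against untreated skin (TMM 4910 and 5433). It moved the median of all genes by 0.56 there, 0.14 in cKO against untreated skin and 0.12 in cKO against fl/fl. Depth was lowest in MAR1 libraries, where 3 counts are 0.257 to 0.446 CPM.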
